A study of Drosophila melanogaster with 6 samples.

Results

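The solvent control of a JQ1 experiment was described by setting the library of S2-DRSC cells kept in DMSO for 20 h against the library of cells kept in DMSO for 1 h. These were 2 of the 6 RNA-seq libraries of the series. The other 4 libraries came from cells that received JQ1, an inhibitor of BET bromodomain proteins, at 10 µM for 1, 2, 4 or 20 h. The DMSO cells received the solvent and no inhibitor, and all cells grew in Schneider's medium with 10% fetal calf serum. The study used the DMSO libraries as the reference for JQ1, and the comparison asks which genes differ with time in solvent and culture. Each condition had 1 library, so no value below has a replicate check, and an interval covers counting error only. In bulk RNA, fewer cells of a kind and less RNA per cell cannot be told apart.

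S2 cells derive from Drosophila embryos and resemble plasmatocytes, the macrophages of the fly. Plasmatocytes arise under the GATA factor Serpent, engulf dying cells and microbes through scavenger receptors, and secrete much of the basement membrane of the body. The other blood cells of the fly are crystal cells, which carry prophenoloxidase for melanization, and lamellocytes, which encapsulate parasites. A line in culture is a dividing population of such cells and holds none of the tissues around them.

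The DMSO libraries held 24547077 reads in genes at 20 h and 27786072 at 1 h, and 11170 and 11276 genes had at least 1 read. The 4 JQ1 libraries held between 26769735 and 29823608. In DMSO, 417 genes at 20 h and 405 genes at 1 h took 50% of the reads in genes. Levels are given as scaled counts, which are reads divided by a library factor set on the 100 genes with the most reads in DMSO. Levels of different genes are compared only per kb of exon, which leaves out identifiers with no length in the annotation used (13524 of 14869 had one).

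Ribosomal protein genes led the profile. Of the 15 genes with the most scaled counts per kb, 14 encoded proteins of the cytoplasmic ribosome, and so did 47 of the first 50. RpL41 stood first with 209000 scaled counts per kb at 20 h and 216800 at 1 h. RpL39 followed with 163600 at 20 h and 161800 at 1 h, and RpL21 with 141700 at 20 h and 141300 at 1 h. Further ribosomal genes among the 15 included RpS3A, RpLP2, sta, RpS15Aa, RpS27A, RpL23, RpL23A, RpS18 and RpL5. The only gene of the 15 outside the ribosomal proteins was eEF2, the factor that moves the ribosome along the message, with 103200 per kb at 20 h and 101300 at 1 h. All 82 cytoplasmic ribosomal protein genes together took 14.2% of the gene reads at 20 h and 14.6% at 1 h. By reads alone the first place went to an identifier with no symbol in the annotation used, FBgn0000556, with 1.58% of the reads at 20 h and 1.60% at 1 h. It had no length and could not be placed in the order per kb.

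Outside the ribosomal proteins, the first genes per kb after eEF2 were Act5C, SPARC, eIF4A, alphaTub84B and Hsp83. Act5C, a cytoplasmic actin, had 67040 scaled counts per kb at 20 h and 63460 at 1 h. SPARC, a collagen-binding protein of the basement membrane, had 55280 per kb at 20 h and 56650 at 1 h. The translation factor eIF4A had 51170 at 20 h and 51360 at 1 h, and the chaperone gene Hsp83 had 52440 at 20 h and 41640 at 1 h. The collagen IV chains Col4a1 and vkg stood at 32730 and 22190 per kb at 20 h, against 32090 and 22330 at 1 h. Pxn, a peroxidase that crosslinks collagen IV, reached 37490 per kb at 20 h and 36640 at 1 h. The laminin chain LanA reached 12780 per kb at 20 h and 12600 at 1 h. CtsL1, a lysosomal cathepsin, had 48560 per kb at 20 h and 44830 at 1 h, and Idgf6 and Idgf2, chitinase-like secreted growth factors, had 43040 and 35110 at 20 h, against 42180 and 33990 at 1 h. The 9 extracellular matrix genes found in the files together took 2.58% of the gene reads at 20 h and 2.64% at 1 h.

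The labelled cell line was checked against blood cell markers, and 15 of 17 markers of the blood lineage and of plasmatocytes were above the minimum for testing. The GATA factor gene srp had 3248 scaled counts per kb at 20 h and 3190 at 1 h, and its cofactor ush had 1294 at 20 h and 1154 at 1 h. The scavenger receptor Sr-CI had 9694 per kb at 20 h and 9178 at 1 h. He, a glycosylated surface protein of blood cells, had 7994 at 20 h and 7495 at 1 h. Pvr, the PDGF and VEGF receptor that blood cells need to survive and migrate, had 6027 at 20 h and 5885 at 1 h. These levels differed little between the libraries, with log2 values between 0.03 and 0.16.

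Other receptors for engulfment were lower than Sr-CI but well covered. The CD36 relative crq had 2287 per kb at 20 h and 2232 at 1 h, eater 2329 at 20 h and 2050 at 1 h, and drpr, which takes up dying cells, 2274 at 20 h and 2432 at 1 h. Hml, a clotting factor used as a plasmatocyte marker, had 1177 per kb at 20 h and 1081 at 1 h. NimC1, a phagocytosis receptor, was the lowest of the tested markers with 228 per kb at 20 h and 242 at 1 h. Both members under the minimum were the glial and plasmatocyte factors gcm and gcm2. They had 1 and 3 reads at 20 h and 0 reads each at 1 h. A count of 0 in a library allows up to 3 reads.

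Markers of the other blood cells were split. Among crystal cell genes, the Runx factor lz had 3.74 scaled counts per kb at 20 h and 4.81 at 1 h. The enzyme gene PPO2 had 407 per kb at 20 h and 337 at 1 h. The other members found were peb and N, with 5.93 and 872 per kb at 20 h, against 6.13 and 857 at 1 h. The listed symbol PPO1 was not found. Among lamellocyte genes, the surface protein atilla had 6 reads at 20 h and 3 at 1 h, and the integrin subunit ItgaPS4 had 5.79 per kb at 20 h and 7.29 at 1 h. The lamellocyte enzyme PPO3 had 636 per kb at 20 h and 666 at 1 h. The other members, msn and cher, were the highest, with 4246 and 7446 per kb at 20 h, against 4177 and 7650 at 1 h. Of the progenitor and lymph gland genes, kn had 1 read at 20 h and 4 at 1 h, and the homeotic gene Antp had 0 reads in both libraries. Tep4, a thioester protein marking progenitors, had 9207 per kb at 20 h and 9000 at 1 h. The remaining genes dome and hop had 607 and 549 per kb at 20 h, against 579 and 533 at 1 h.

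**Figure D1:**
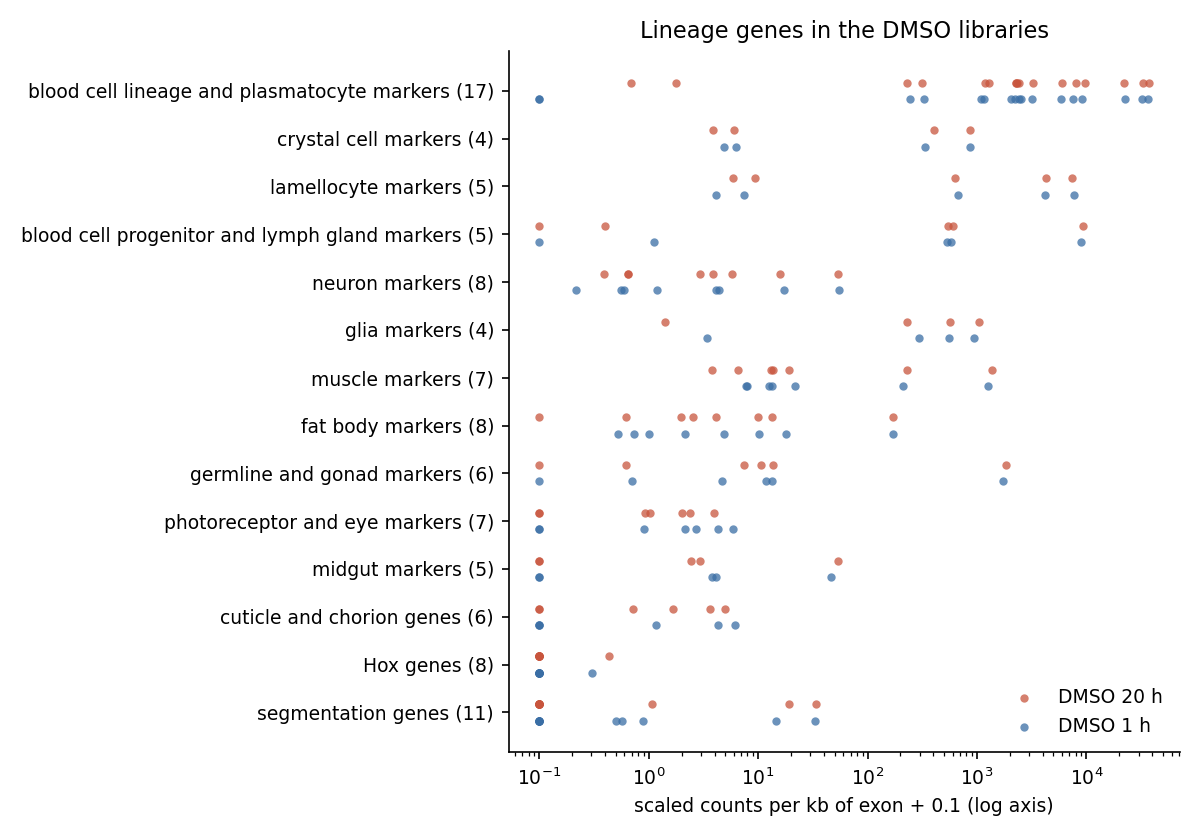
Scaled counts per kb of exon plus 0.1 on a log axis, with 1 point per gene and library, for lists of lineage genes. Red points are DMSO 20 h and blue points, drawn below them, are DMSO 1 h. The number found in the files stands beside each list, and points at the left edge had 0 reads. Most blood lineage genes lie far to the right of the Hox, segmentation, cuticle and eye genes in both libraries.

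Hox, segmentation, cuticle, midgut and eye genes were mostly silent. Of 8 Hox genes, 6 had 0 reads in both libraries, abd-A had 0 at 20 h and 1 at 1 h, and Abd-B had 3 at 20 h and 0 at 1 h. Of 13 segmentation genes listed, 11 were found by symbol. Of these 11, 5 had 0 reads in both, and only gt and hh passed the minimum. The listed symbols h and wg were not found. The gene h now has the symbol hry and was not silent, with 9461 scaled counts at 20 h and 7546 at 1 h. Gap gene gt had 46 reads at 20 h and 53 at 1 h, and the signal gene hh had 35 at 20 h and 31 at 1 h. None of 6 cuticle and chorion genes passed, and 1 of 5 midgut genes did, Mal-A1, a maltase, with 75 reads at 20 h and 76 at 1 h. Of 7 eye genes only ninaC passed, with 8 reads at 20 h and 10 at 1 h.

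Lists of other tissues were part silent and part expressed. The minimum was passed by 6 of 7 muscle genes, 3 of 4 glia genes, 4 of 6 germline and gonad genes, 4 of 8 neuron genes and 3 of 8 fat body genes. These totals hold the members found by symbol, out of 9 muscle genes and 8 germline and gonad genes listed. The listed symbols Mhc, wupA, vas and nos were not found, so their levels are not known here. The neuronal RNA-binding protein gene elav had 53.4 scaled counts per kb at 20 h and 54.2 at 1 h, while the synaptic genes nSyb and Syt1 stayed under 3 per kb. Glial genes moody, a receptor of the blood-brain barrier, and nrv2, a sodium pump subunit, had 561 and 1048 per kb at 20 h, against 561 and 935 at 1 h, while the glial factor repo had 3 reads at 20 h and 9 at 1 h. The piRNA pathway gene aub had 1833 per kb at 20 h and 1721 at 1 h, while the germline gene ovo had 3 reads at 20 h and 4 at 1 h. Among muscle genes, the tropomyosin gene Tm1 had 1376 per kb at 20 h and 1261 at 1 h, the muscle factor Mef2 had 227 at 20 h and 211 at 1 h, and sls, the fly titin, had 12.9 at 20 h and 12.4 at 1 h. The lipoprotein gene apolpp, a product of the fat body, had 170 per kb at 20 h and 172 at 1 h, and the larval serum protein gene Lsp2 had 1 read at 20 h and 2 at 1 h.

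Over the whole table, 3098 of 14869 identifiers had 0 reads in both DMSO libraries, and 2121 of the 12571 identifiers annotated as protein coding were among them. A further 1096 identifiers had reads in only 1 of the DMSO libraries, with at most 8 reads there. The tests took the 8826 genes that averaged 10 or more scaled counts in DMSO, and 556 of these averaged 10000 or more. Of the 3098 unread identifiers, 3 reached 10 scaled counts in a JQ1 library.

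The DMSO libraries were close to each other across these genes. Of 8826 genes, 7571 (85.8%) differed by less than 1.2-fold and 8458 (95.8%) by less than 1.5-fold. The log2 values (DMSO 20 h over DMSO 1 h) had a median of 0.05 and an SD of 0.23. Pearson's r of the log2 levels was 0.997 across genes, which are not independent replicates. The chromosome arms 2L, 2R, 3L, 3R and X had medians between 0.05 and 0.06, and so had chromosome 4 with 72 genes. The 68 tested mitochondrial ribosomal protein genes and the 34 proteasome genes had medians of 0.06 each, and the 75 cytoplasmic ribosomal protein genes a median of 0.00, which was −0.06 to −0.04 under the other scalings. Since 49 of the 100 index genes encode ribosomal proteins, the main scaling sets their median near 0. The 60 snoRNA genes tested had a median of −0.07. The 5 classes of exonic length had medians between 0.04 and 0.07.

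The spread narrowed with level. Genes with 10 to 30 scaled counts had an SD of 0.55, against 0.55 for the median gene of that class if counting were the only source. With 300 to 1000 scaled counts the SD was 0.12, against 0.09 from counting. In the 556 genes of 10000 or more it was 0.07, against 0.02 from counting. The SD of the low genes was thus near that of counting, and that of the abundant genes was above it. With 1 library per time, what lies beyond counting cannot be told apart from differences between cultures or library preparations. For JQ1 20 h over JQ1 1 h, which shares no library with the DMSO pair, the SD lay between 0.66 and 1.21 in the same classes.

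**Figure D2:**
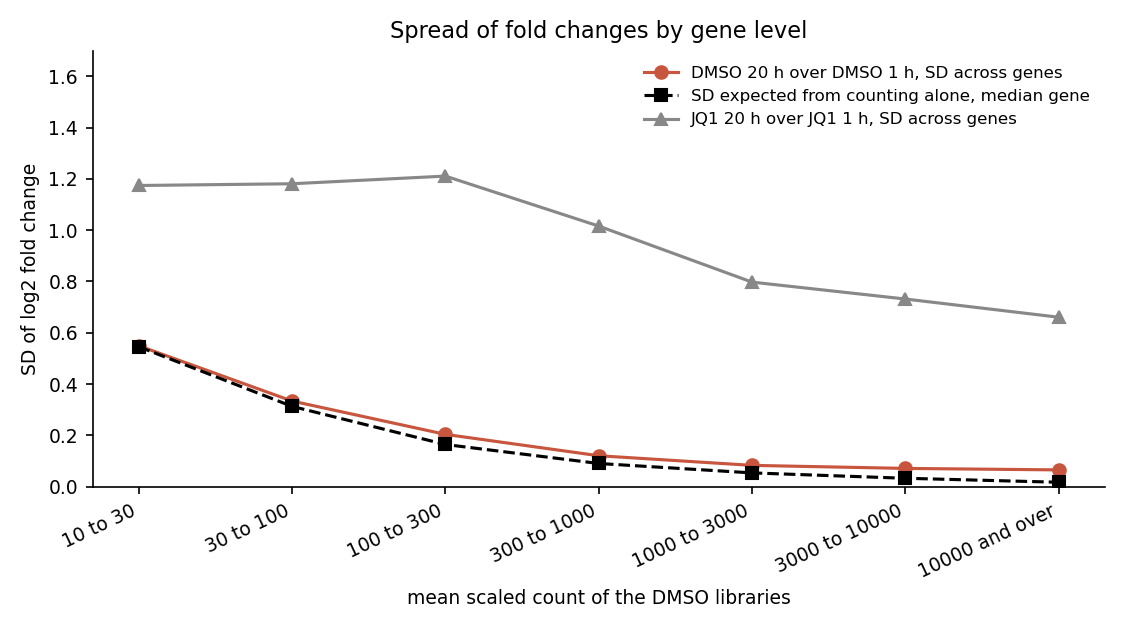
SD of the log2 fold change across genes (y axis) in 7 classes of mean scaled DMSO count (x axis). Red circles are DMSO 20 h over DMSO 1 h, black squares the SD from counting alone for the median gene, and grey triangles JQ1 20 h over JQ1 1 h. The DMSO curve descends from 0.55 to 0.07 and lies near the counting curve at its left end.

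Few genes passed 2-fold between the DMSO libraries, and nearly all of them were low. In DMSO 20 h 44 genes (0.499% of 8826) were above 200% of DMSO 1 h and 29 (0.329%) were below 50%. In JQ1 20 h against JQ1 1 h, 673 of the same 8826 genes (7.63%) were above 200% and 1313 (14.9%) were below 50%. Of the 44 genes, 42 had a mean under 50 scaled counts, and so had all 29 lower genes, the highest at 33.8. Because these genes were picked for their fold, their intervals are a description only. The interval did not include equality for 24 of the 44 and 14 of the 29, and for 25.6% of all genes tested and 3.59% of those with 10 to 30 scaled counts. The last 2 shares depend on the scaling. Set against the median of all genes tested in place of equality, they were 17.1% and 3.3%. In JQ1, 8 of the 44 were above 200% as well (18.2% of the 44 and 1.19% of the 673). Of the 29, 6 were below 50% in JQ1 (20.7% of the 29 and 0.457% of the 1313). In the opposite direction in JQ1 were 6 of the 44 and 4 of the 29. Under 30 scaled counts lay 39 of the 44 and 28 of the 29. Of the 1031 genes with 10 to 30 scaled counts, 347 passed 2-fold in JQ1 in either direction. The balance of directions depended on the scaling, with 25 above and 32 below for total counts, 17 and 25 for TMM, 17 and 23 for DESeq2 factors, and 30 and 33 for an index of 500 genes.

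The low genes include members of several families. Lim3, a LIM homeobox factor of motor neurons, had 24 reads at 20 h and 10 at 1 h. The tetraspanin Tsp42Ec had 34 reads at 20 h and 16 at 1 h, and Toll-4, a Toll family receptor, had 24 at 20 h and 13 at 1 h. Among lower genes, Fas2, a neural adhesion molecule, had 8 reads at 20 h and 20 at 1 h, and gogo, an axon guidance receptor, had 9 at 20 h and 26 at 1 h. CG11409 had 8 reads at 20 h and 43 at 1 h, a log2 value of −2.10 (95% interval −3.50 to −1.10). It was the only one of the low genes whose interval lay wholly past 2-fold. These examples were chosen after their values were seen.

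**Figure D3:**
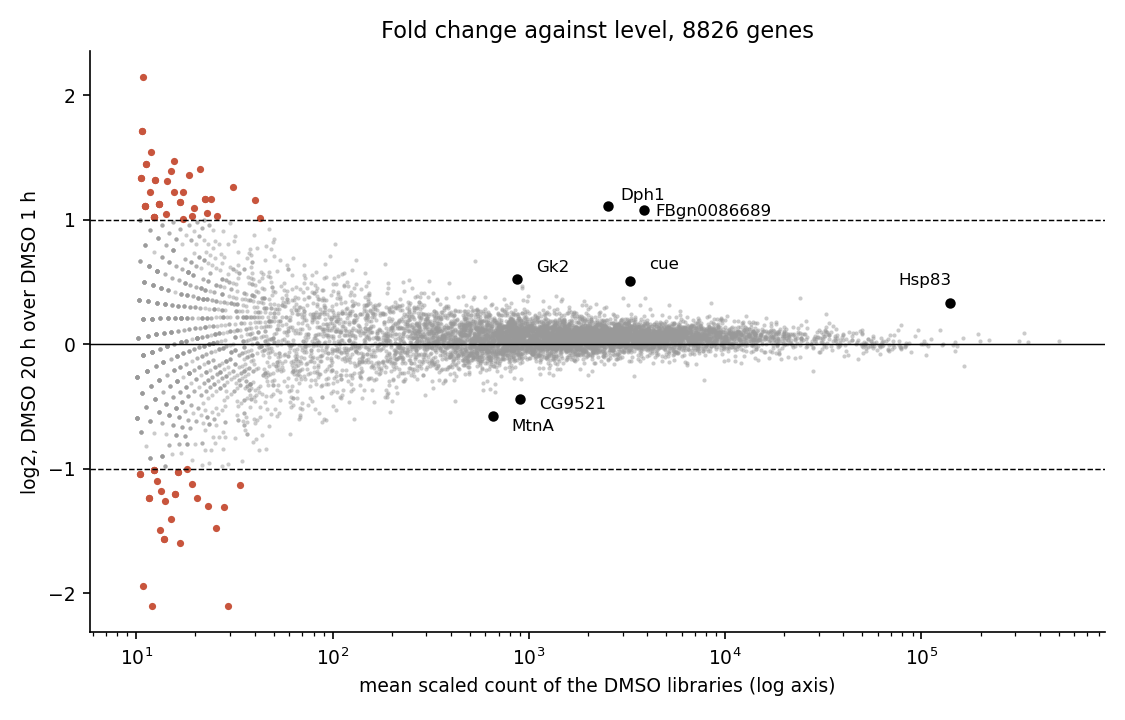
Log2 of DMSO 20 h over DMSO 1 h (y axis) against the mean scaled DMSO count on a log axis, with 1 point per gene for 8826 genes. Red points are past 2-fold (dashed lines), and 7 genes are named in black. The red points crowd at the left, under 50 scaled counts, apart from Dph1 and FBgn0086689.

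The rule for named genes asked for a change past 2-fold in genes averaging 50 or more scaled counts, and 2 genes met it, both higher at 20 h. Dph1, which in yeast and mammals starts the synthesis of diphthamide, the modified histidine of elongation factor 2, was at 3458 scaled counts in the DMSO 20 h library, against 1603 in the DMSO 1 h library. The log2 value was 1.11 (95% interval 1.02 to 1.20). The JQ1 libraries of 1, 2, 4 and 20 h had 789, 1280, 1071 and 1786 scaled counts of it, so that DMSO 20 h was the highest of the 6 libraries. No other gene model overlaps that of Dph1 on chromosome 3L in the annotation used.

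The identifier FBgn0086689, which had no symbol there, was at 5212 scaled counts in the DMSO 20 h library, against 2466 in the DMSO 1 h library. The log2 value was 1.08 (95% interval 1.00 to 1.16). The JQ1 libraries of 1, 2, 4 and 20 h had 1387, 2656, 2216 and 2383 scaled counts, all well below DMSO 20 h. Under the 4 other scalings both genes remained past 2-fold, with log2 values of 1.05 to 1.07 for Dph1 and 1.02 to 1.04 for FBgn0086689, but their intervals then no longer lay wholly past it.

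A test with a spread taken from other libraries called none of these genes. In edgeR's quasi-likelihood test the spread came from the JQ1 libraries of 1, 2 and 4 h, taken as 1 group, and the lone DMSO libraries were assumed to vary like them. Of 8826 genes, 0 (0% of those tested) were higher and 0 (0%) were lower in DMSO 20 h at an adjusted p-value of 0.05. At an unadjusted p under 0.05 there were 15 genes, 7 of them higher. The Wald test of DESeq2 called 0 genes in either direction and had 2 at an unadjusted p under 0.05. The spread used includes change with time in JQ1. Without any difference and with a fitting spread, a share of 0.05 of the genes would have an unadjusted p under 0.05. The share found was far lower, so the test could call few genes, and its count of 0 does not show that genes were level.

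With at least 200 scaled counts on average, 6561 genes were measured well enough to show small differences. Among them 3 were more than 1.5-fold higher at 20 h, which were Dph1, FBgn0086689 and FBgn0020303, and 0 were more than 1.5-fold lower. Under each of the 4 other scalings the same 3 genes were higher and 1 gene, MtnA, was more than 1.5-fold lower. FBgn0020303, which had no symbol, had 650 scaled counts at 20 h and 408 at 1 h. The whole interval lay above 1.2-fold for 14 genes and below it for 2. With the other scalings these counts were between 6 and 8 above and 4 or 5 below. The genes named from here to the end of the next paragraph were chosen after their values were seen.

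Metabolic, transcription factor and chaperone genes were among the 14. Gk2, a glycerol kinase, had 1023 scaled counts at 20 h and 713 at 1 h, a log2 value of 0.52 (0.37 to 0.67). cue, a membrane protein with LDL receptor repeats, had 3835 at 20 h and 2703 at 1 h, a value of 0.50 (0.43 to 0.58), but its model overlaps that of Psa on the other strand. The zinc finger factors sug and cbt, which respond to sugar, had 3408 and 4392 at 20 h, against 2634 and 3400 at 1 h. The model of sug overlaps that of CG13319 on the same strand, and that of cbt overlaps ush, whose own log2 value was 0.16. hry, the segmentation gene listed as h, had 9461 at 20 h and 7546 at 1 h. Hsp83, the fly Hsp90 chaperone, had 155210 scaled counts at 20 h and 123250 at 1 h, a value of 0.33 (0.32 to 0.34). Its model overlaps that of CG14966 on the other strand.

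The 2 genes below were MtnA and CG9521. MtnA, a metallothionein that binds copper and other metals, had 524 scaled counts at 20 h and 785 at 1 h, a log2 value of −0.58 (−0.76 to −0.40). CG9521 had 761 at 20 h and 1035 at 1 h, a value of −0.44 (−0.60 to −0.29), and its model overlaps that of Flo2 on the other strand. Further genes with the most negative values were the Notch target E(spl)mbeta-HLH with 579 at 20 h and 758 at 1 h, the potassium channel gene eag with 254 at 20 h and 338 at 1 h, and Gs2, a glutamine synthetase, with 509 at 20 h and 657 at 1 h. All 15 genes with the most negative values were also lower in JQ1 20 h than in JQ1 1 h. Of the 15 with the most positive values, 7 were higher in JQ1 20 h than in JQ1 1 h. Among all 6561 genes the shares were 47.3% lower and 52.7% higher. These shares are not matched for level, and the 15 lower genes all averaged under 1000 scaled counts in DMSO. The median of JQ1 20 h over JQ1 1 h was −0.29 for genes with 100 to 300 scaled counts and −0.07 for 300 to 1000. For genes with 1000 to 3000 it was 0.04.

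**Figure D4:**
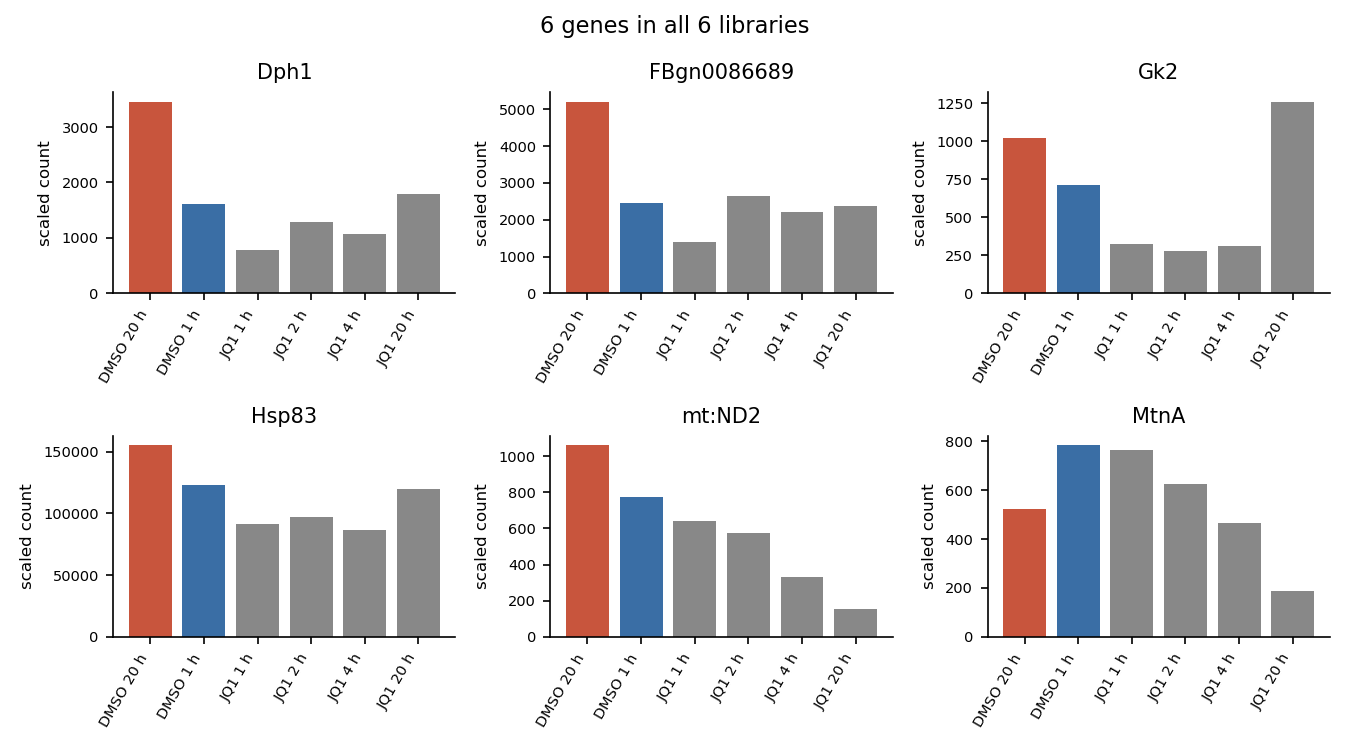
Scaled counts (y axis) of 6 genes in the 6 libraries, 1 bar per library, with DMSO 20 h in red, DMSO 1 h in blue and JQ1 at 1, 2, 4 and 20 h in grey. Dph1 and FBgn0086689 are highest in DMSO 20 h, and MtnA is at 524 there, against 785 in DMSO 1 h.

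The response lists moved little between the libraries. Of 18 lists with at least 3 tested members, 9 had a median above that of all genes tested and 9 a median below it, under each of the 5 scalings. A scaling moves all genes alike, and the sign against 0 changed with it for 4 lists. No list with at least 3 tested members had a median farther from 0 than 0.18, and the median of all genes tested was 0.05. Across the response lists 1 tested member passed 2-fold, the antimicrobial peptide gene AttA, with 13 reads at 20 h and 7 at 1 h, against 73 of all 8826 genes tested. Members under the minimum are left out of these counts.

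The mitochondrially encoded genes had the most positive median of those lists, 0.18, and 0.12 to 0.13 under the other scalings. All 8 tested members were above 0 under every scaling, while of all genes tested 69.9% were above 0 on the main scaling and 47.7% to 54.2% on the others. The members lie on the same genome and were read in the same libraries, so they are not independent observations. In JQ1 20 h over JQ1 1 h, mt:ATPase6 was the only tested member above 0, at 0.33, and mt:ND2 was the lowest, at −2.06. mt:CoI, a core subunit of cytochrome oxidase, had 27614 scaled counts at 20 h and 24235 at 1 h, and mt:CoIII had 20995 at 20 h and 19787 at 1 h. mt:ND2, a subunit of complex I, had 1061 at 20 h and 776 at 1 h, a log2 value of 0.45 (0.30 to 0.60), and mt:ND1 had 2715 at 20 h and 2414 at 1 h. The libraries were enriched for polyadenylated RNA, and how much of the mitochondrial RNA they capture was not tested.

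The growth lists were nearly level by their medians. The 11 cyclin and mitosis genes had a median of 0.09. The kinase gene polo had 10207 scaled counts at 20 h and 8833 at 1 h, while CycE, the cyclin that starts S phase, was the only member below 0 on the main scaling, with 2053 at 20 h and 2280 at 1 h. Under the 4 other scalings CycD and stg were below 0 too, and 8 of the 11 stayed above 0 under all of them. The 10 DNA replication genes had a median of 0.06, and PCNA, the sliding clamp, had 6629 at 20 h and 6849 at 1 h. The 11 glycolysis genes had a median of −0.03, with Hex-A, the hexokinase at the entry of the pathway, at 6427 at 20 h and 5347 at 1 h, and Ldh, which makes lactate, at 9430 at 20 h and 10366 at 1 h.

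Nutrient and stress genes showed single members apart from their lists. Among genes of the ATF4 response to amino acid shortage, the median was 0.10. Sesn, an inhibitor of TOR signalling, had 2147 scaled counts at 20 h and 1689 at 1 h, and crc, the fly ATF4, had 50944 at 20 h and 48235 at 1 h. The FOXO and insulin list had a median of 0.06, and Pepck1, an enzyme of gluconeogenesis, had 8880 at 20 h and 7600 at 1 h. The heat shock list had a median of −0.04, and apart from Hsp83 its well-covered members were close, with Hsp26, a small chaperone, at 689 at 20 h and 707 at 1 h, and Hsp68 at 874 at 20 h and 903 at 1 h. Hsc70-3, the BiP chaperone of the endoplasmic reticulum, had 49976 at 20 h and 50657 at 1 h, and the list of endoplasmic reticulum stress genes had a median of 0.03 that turned below 0 under the other scalings. The lipid synthesis list had a median of −0.03, and ACC, which makes malonyl-CoA, had 15977 at 20 h and 17282 at 1 h.

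Most immune and signalling genes named here were low or nearly level, apart from kay and scyl, with log2 values of 0.24 and 0.23. The peptide gene CecA1 had 179 reads at 20 h and 182 at 1 h, AttC and DptA had 0 in both libraries, and the median of the list was 0.08. Rel, the NF-kappaB factor of the Imd pathway, had 6600 scaled counts at 20 h and 6929 at 1 h. In the list of JNK, AP-1 and early response genes the median was 0.08, and kay, the fly Fos, had 35285 at 20 h and 29802 at 1 h. The JAK-STAT receptor dome had 2957 at 20 h and 2820 at 1 h. The ecdysone receptor gene EcR had 2585 at 20 h and 2678 at 1 h, and the median of its list was −0.02. Among detoxification genes, the glutathione transferase gene GstE6 had 5517 at 20 h and 5664 at 1 h, with a list median of −0.01. scyl, a hypoxia-induced inhibitor of TOR, had 4593 at 20 h and 3909 at 1 h. The iron storage gene Fer1HCH had 21692 at 20 h and 23472 at 1 h, while its list of iron and oxidative stress genes had a median of 0.05, which was −0.01 with TMM factors.

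**Figure D5:**
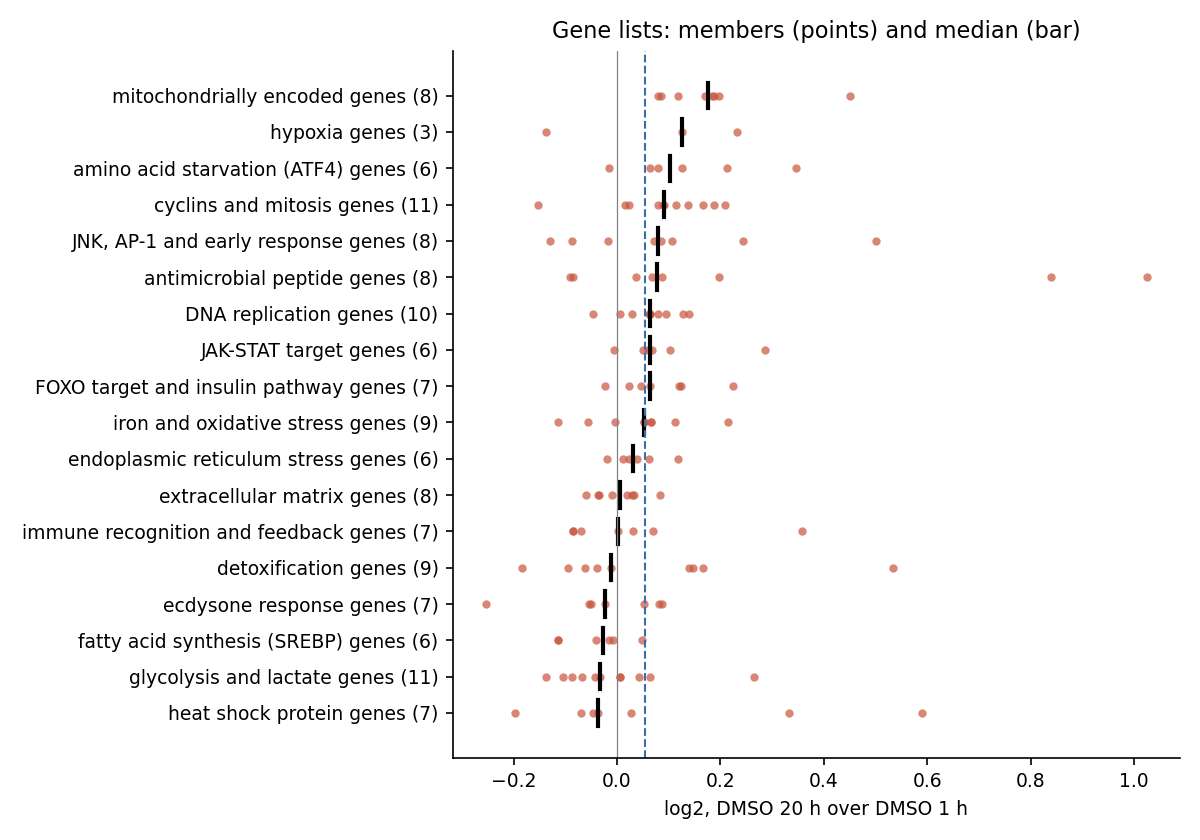
Log2 of DMSO 20 h over DMSO 1 h (x axis) for the tested members of 18 response lists, 1 red point per gene, with a black bar at the median and the number of members beside the name. The dashed line is the median of all genes tested, 0.05. Medians lie between −0.04 and 0.18.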

How the data were processed

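The deposited files held raw counts of reads per gene. The authors aligned single-end reads of 50 cycles with TopHat and counted unique reads with HTSeq on Ensembl release 64 models (BDGP5). Tool versions and the use of strand were not given in the sources used here. The 5 lines that name no gene, 27.3% of the records in DMSO 20 h and 27.2% in DMSO 1 h, were left out. Symbols, exonic lengths and overlaps came from Ensembl release 115 (release 6 assembly), matching 13524 of 14869 identifiers.

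For each of the 100 index genes, the count was divided by the geometric mean of the 6 libraries, and the median ratio was the library factor. Tested genes averaged 10 or more scaled counts in DMSO. The log2 value used a pseudocount of 1, which understates changes of low genes. Intervals are exact (Clopper-Pearson) at 95% and cover counting error only. edgeR 4.0.16 (R 4.3.3) used 4 groups, with Benjamini-Hochberg adjustment and 2 residual degrees of freedom. The test was checked only on simulated data with less spread than was estimated here. DESeq2 1.42.0 was an alternative. Named genes were up to 15 per direction past 2-fold with a mean of at least 50, the 15 with most counts per kb, and list members. The lists and tests were chosen with earlier results of these data known.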

Additional observations from a re-analysis of the deposited data

Results flagged for a closer look

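In 10 genes DMSO 20 h and JQ1 20 h lay past 2-fold on opposite sides of their own 1 h library. These were 6 of the 44 higher and 4 of the 29 lower genes, while 8 and 6 went the same way. Of all 8826 genes, 14.9% were below 50% and 7.63% above 200% in JQ1 20 h against JQ1 1 h. All 10 had a mean under 50 scaled counts in DMSO, and the difference between solvent and inhibitor was not tested. In log2 of 20 h over 1 h, Lim3 was at 1.41 in DMSO and −1.99 in JQ1, qua at 2.14 and −1.31, CG4377 at 1.22 and −1.82, CG11672 at 1.45 and −2.84, CG7208 at 1.22 and −1.63, and CG33689 at 1.32 and −1.83. In the other direction, Fas2 was at −1.03 in DMSO and 2.58 in JQ1, FBgn0028961 at −1.60 and 1.34, CG14567 at −2.10 and 1.65, and gogo at −1.24 and 1.03.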

How the results depend on the processing

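Counts past 2-fold moved with the low genes that were tested. The 44 genes above 200% became 25 with total counts, 17 with TMM and 17 with DESeq2 factors, each of which tested fewer genes. With the same 8826 genes, chosen after seeing the data, they were 34 or 35 above and 35 below under the 4 other scalings. Without a filter 743 genes were above and 783 below, with a minimum of 50 scaled counts 2 and 0, and with a pseudocount of 5 there were 15 and 13. The edgeR counts were 0 and 0 under every alternative, and leaving out each JQ1 library of 1, 2 or 4 h gave 0 throughout. With 1 library in each DMSO arm and 15 genes at an unadjusted p under 0.05, these counts of 0 say nothing about stability. The additive fit tested a time effect shared by the DMSO and JQ1 arms, and not DMSO 20 h against DMSO 1 h alone. It called 0 genes, with 917 at an unadjusted p under 0.05, to which the JQ1 libraries contribute. Of 155 recomputed values for 31 named genes, 151 stayed within their counting interval, and the other 4 were those of Hsp83, at 0.27 to 0.29. No paired analysis was possible because each group holds 1 library.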
